A study of Mus musculus with 12 samples.

Results

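The genes described here are 10 that are commonly used to follow the epithelial-mesenchymal transition (EMT): the cadherins Cdh1, Cdh2 and Cdh11, the intermediate filament gene Vim, and the transcription factors Zeb1, Zeb2, Snai1, Snai2, Twist1 and Prrx1. They were taken by name, through their Entrez identifiers, from a table of 24454 gene rows in 12 RNA-seq libraries, and all 10 were found. The rule is a list of names and uses no threshold on a measured value.

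The series set siRNA against Nrf2 (siNrf2) beside a non-targeting siRNA (siCtl), 48 hours after transfection, in 3 mouse mammary tumour lines that the submitters call mesenchymal. Nrf2, encoded by Nfe2l2, is a transcription factor of the oxidative stress response. The groups were MT∆Ecad siNrf2 and MT∆Ecad siCtl, from a tumour of the MMTV-Neu strain; Py2T LT siNrf2 and Py2T LT siCtl, from the MMTV-PyMT strain; and PyMT-1099 LT siNrf2 and PyMT-1099 LT siCtl, also from MMTV-PyMT. Each group had 2 libraries, described as biological duplicates, of 27088970 to 37070635 reads. In both strains the MMTV promoter drives the oncogene in the mammary gland. The name MT∆Ecad denotes a deletion of the E-cadherin gene Cdh1, whose exons the labels do not give; the labels do not expand "LT" and name no growth factor added to the medium. All 3 lines were grown alike, in DMEM with serum, and each is a single line, so a difference between lines cannot be told apart from a difference between strains, oncogenes or clones.

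In an epithelial cell, E-cadherin (Cdh1) joins neighbouring cells through its extracellular repeats and holds the actin belt through catenins. During EMT the ZEB and SNAIL zinc finger factors bind E-box sequences at Cdh1 and other epithelial genes and repress them, while TWIST and PRRX factors are basic helix-loop-helix and homeobox regulators that act in embryonic mesenchyme and can induce the same change. N-cadherin (Cdh2), cadherin-11 (Cdh11) and vimentin (Vim) are proteins of mesenchymal cells and are often gained as E-cadherin is lost.

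Nfe2l2 itself was at 50.8 and 54.0 CPM (reads on the gene, scaled to a common library total of 1000000 reads) in MT∆Ecad siNrf2, against 208 and 209 CPM in MT∆Ecad siCtl. It was at 21.9 and 24.5 CPM in Py2T LT siNrf2, against 89.7 and 83.6 CPM in Py2T LT siCtl, and at 25.7 and 33.3 CPM in PyMT-1099 LT siNrf2, against 113 and 113 CPM in PyMT-1099 LT siCtl. The mean thus stood at 25.2%, 26.8% and 26.1% of siCtl, with no overlap in any line. As markers of the labelled tissue, 5 or 6 of 9 mammary epithelial genes were at 1 CPM or more in every group, with summed levels of 2364 to 5517 CPM, but Epcam had 0 reads in PyMT-1099 LT. Of other cell types, the fibroblast genes at 1 CPM or more were Pdgfra, Pdgfrb and Col1a1 (3 of 8), the endothelial gene was Cdh5 (1 of 7, in the PyMT lines) and the leukocyte genes were Cd68 and Csf1r (2 of 7).

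E-cadherin RNA ran from near absence in MT∆Ecad to its highest level in PyMT-1099 LT. Cdh1 was at 0.315 and 0.639 CPM in MT∆Ecad siNrf2 and at 0.454 and 0.332 CPM in MT∆Ecad siCtl, which is 9 to 22 reads a library. It was at 14.6 and 18.1 CPM in Py2T LT siNrf2 and at 12.5 and 15.2 CPM in Py2T LT siCtl. It was at 61.5 and 62.1 CPM in PyMT-1099 LT siNrf2 and at 47.8 and 51.6 CPM in PyMT-1099 LT siCtl. Every PyMT-1099 LT library lay above every Py2T LT library, and every Py2T LT library above every MT∆Ecad library, so both PyMT lines still carried Cdh1 RNA under the label mesenchymal. In siCtl the mean was 126-fold lower in MT∆Ecad than in PyMT-1099 LT and 35.3-fold lower in MT∆Ecad than in Py2T LT. On the log2(CPM + 1) scale used for all tests, which understates the change of low genes, Cdh1 differed by −3.41 between MT∆Ecad and Py2T LT (SE 0.15, limma adjusted p 5.7e-08), by −5.19 between MT∆Ecad and PyMT-1099 LT (adjusted p 1.9e-09), and by −1.77 between Py2T LT and PyMT-1099 LT (adjusted p 6.1e-06). The gene's row is not split by exon, so these reads do not check the deletion in MT∆Ecad.

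N-cadherin did not mirror E-cadherin across the lines. Cdh2 was at 240 and 236 CPM in MT∆Ecad siNrf2 and at 215 and 215 CPM in MT∆Ecad siCtl, and at 227 and 237 CPM in PyMT-1099 LT siNrf2 and 208 and 205 CPM in PyMT-1099 LT siCtl. It was at 12 and 14.8 CPM in Py2T LT siNrf2 and at 13.7 and 14.3 CPM in Py2T LT siCtl. The line with the most Cdh1 and the line with the least thus held similar amounts of Cdh2, and Py2T LT, in the middle for Cdh1, held the least. In siCtl, Cdh2 was 15.4-fold higher in MT∆Ecad than in Py2T LT (log2 difference 3.85, SE 0.09, limma adjusted p 1.2e-09) and lower in Py2T LT than in PyMT-1099 LT (−3.79, adjusted p 8.0e-10). Between MT∆Ecad and PyMT-1099 LT the difference was 0.06, with a 95% interval of −0.15 to 0.27 (limma adjusted p 0.61).

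Cadherin-11, a cadherin of mesenchymal cells, was at the limit of detection. A sum of 3 reads fell on Cdh11 in all 12 libraries, 1 each in MT∆Ecad siCtl replicate 1, Py2T LT siNrf2 replicate 2 and Py2T LT siCtl replicate 1, and it is the only one of the 10 genes below the filter on low values (1 CPM in at least 2 libraries). In the other 9 libraries the count of 0 allows up to 3 reads, or at most 0.111 CPM. These reads are too few to compare siNrf2 with siCtl.

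Vimentin RNA was abundant in each line. Vim was at 5534 and 5455 CPM in MT∆Ecad siNrf2 and at 4972 and 5050 CPM in MT∆Ecad siCtl. It was at 1828 and 1489 CPM in Py2T LT siNrf2 and at 1855 and 1598 CPM in Py2T LT siCtl, and at 4258 and 3653 CPM in PyMT-1099 LT siNrf2 and 3718 and 3377 CPM in PyMT-1099 LT siCtl. The order of lines followed Cdh2, with Py2T LT lowest, and no library of Py2T LT reached a library of the other lines. In siCtl, Vim was 2.90-fold higher in MT∆Ecad than in Py2T LT (log2 difference 1.54, limma adjusted p 4.2e-06) and lower in Py2T LT than in PyMT-1099 LT (−1.04, adjusted p 6.6e-05). It was 1.41-fold higher in MT∆Ecad than in PyMT-1099 LT (0.50, SE 0.12, limma adjusted p 0.0064), a call that was lost without PyMT-1099 LT siCtl replicate 2 (adjusted p 0.051).

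**Figure D1:**
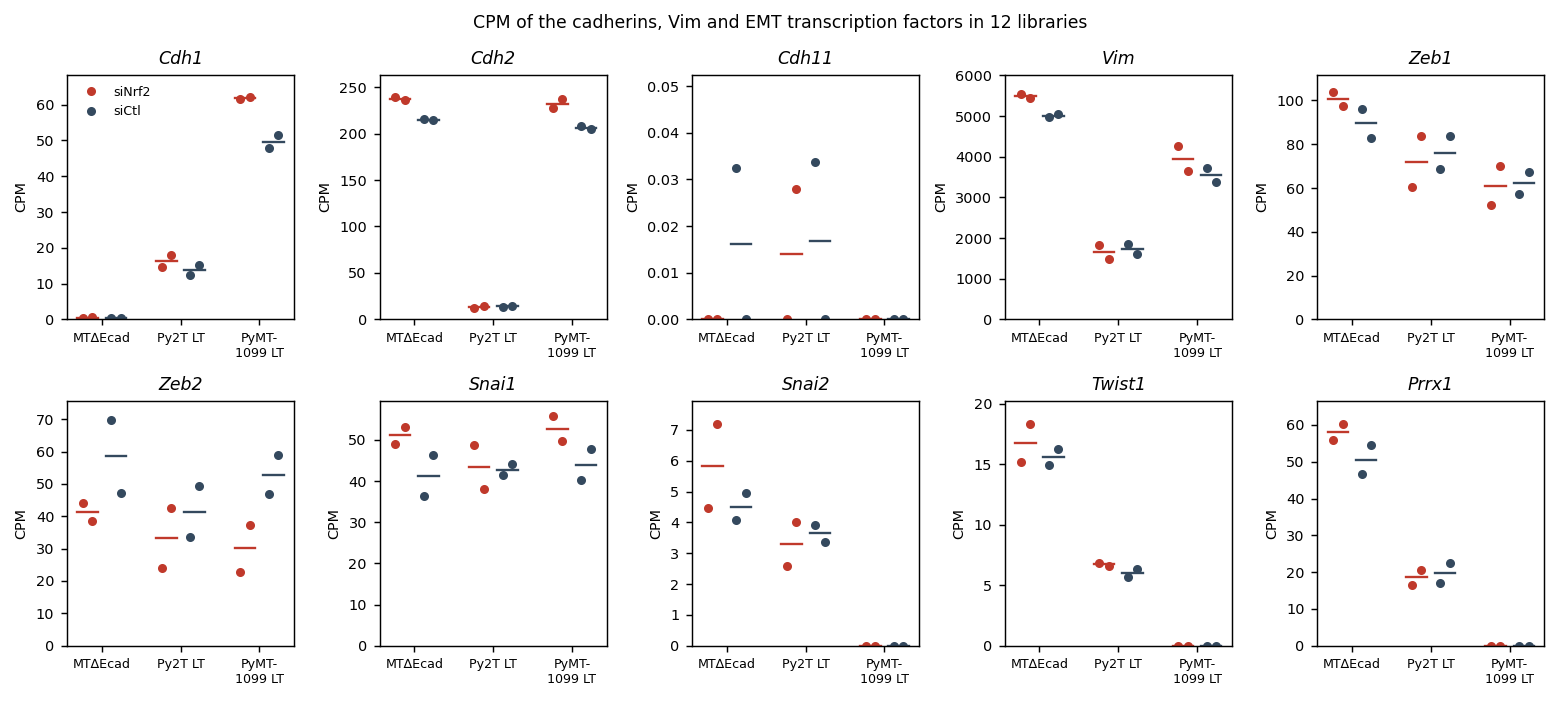
CPM of each gene (vertical axis, linear, from 0, with its own scale in each panel) in the 3 lines, with siNrf2 libraries in red left of siCtl libraries in dark grey-blue; points are libraries, short bars the mean of 2. Cdh1 is highest in PyMT-1099 LT, Cdh2 and Vim are lowest in Py2T LT, and Snai2, Twist1 and Prrx1 lie at 0 in PyMT-1099 LT.

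The factors Snai2, Twist1 and Prrx1 had a gap in common: 0 reads in all 4 PyMT-1099 LT libraries, of 27874077 to 35633505 reads each, and reads in all 8 libraries of the other lines. Snai2, known as Slug, which represses Cdh1, was at 4.48 and 7.20 CPM in MT∆Ecad siNrf2 and 4.08 and 4.95 CPM in MT∆Ecad siCtl, and at 2.58 and 4.02 CPM in Py2T LT siNrf2 and 3.91 and 3.37 CPM in Py2T LT siCtl. Twist1 was at 15.2 and 18.4 CPM in MT∆Ecad siNrf2 and 14.9 and 16.3 CPM in MT∆Ecad siCtl, and at 6.85 and 6.61 CPM in Py2T LT siNrf2 and 5.70 and 6.34 CPM in Py2T LT siCtl. Prrx1 was at 56.0 and 60.4 CPM in MT∆Ecad siNrf2 and 46.7 and 54.5 CPM in MT∆Ecad siCtl, and at 16.6 and 20.7 CPM in Py2T LT siNrf2 and 17.0 and 22.6 CPM in Py2T LT siCtl.

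For Twist1 and Prrx1 every MT∆Ecad library lay above every Py2T LT library, and for Snai2 likewise, with 4.02 CPM the highest in Py2T LT and 4.08 CPM the lowest in MT∆Ecad. Against a floor of 3 reads a library in PyMT-1099 LT, the siCtl means were at least 470-fold higher in MT∆Ecad for Prrx1, at least 145-fold higher for Twist1 and at least 41.9-fold higher for Snai2. In Py2T LT they were at least 184-fold higher for Prrx1, 55.9-fold for Twist1 and 33.8-fold for Snai2. All of these differences were called (limma adjusted p 1.1e-05 or less). Between MT∆Ecad and Py2T LT in siCtl, Prrx1 was 2.55-fold (log2 difference 1.32, limma adjusted p 6.5e-05) and Twist1 2.59-fold higher (1.24, adjusted p 8.9e-06). For Snai2 the difference was 0.25, with a 95% interval of −0.22 to 0.71 (limma adjusted p 0.34), and in the siNrf2 libraries it was 0.66 (limma adjusted p 0.019). The siNrf2 effect on Snai2 was not called different between these 2 lines (0.41, 95% interval −0.24 to 1.07, limma adjusted p 0.53).

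The RefSeq promoter table (build GRCm38.p6) held entries for 5 of the 10 genes, Vim, Zeb2, Snai1, Twist1 and Prrx1. The 250 bases before the start are printed for Prrx1 and Twist1, as genes at 0 reads in the same line, and for Snai1, as a factor with reads in every library. Prrx1 is at chr1:163313651-163313900 on the minus strand, Twist1 at chr12:33957421-33957670 on the plus strand and Snai1 at chr2:167537945-167538194 on the plus strand, each written 5′ to 3′ along its gene.
Prrx1: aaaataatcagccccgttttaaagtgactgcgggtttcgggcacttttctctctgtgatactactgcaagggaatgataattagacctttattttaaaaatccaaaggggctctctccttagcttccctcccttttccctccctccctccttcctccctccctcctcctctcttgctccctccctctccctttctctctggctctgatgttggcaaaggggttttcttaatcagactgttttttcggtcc
Twist1: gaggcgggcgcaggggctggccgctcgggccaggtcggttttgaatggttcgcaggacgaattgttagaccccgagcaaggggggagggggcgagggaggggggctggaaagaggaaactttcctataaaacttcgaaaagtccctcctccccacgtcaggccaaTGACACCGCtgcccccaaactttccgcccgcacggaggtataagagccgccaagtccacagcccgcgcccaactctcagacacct
Snai1: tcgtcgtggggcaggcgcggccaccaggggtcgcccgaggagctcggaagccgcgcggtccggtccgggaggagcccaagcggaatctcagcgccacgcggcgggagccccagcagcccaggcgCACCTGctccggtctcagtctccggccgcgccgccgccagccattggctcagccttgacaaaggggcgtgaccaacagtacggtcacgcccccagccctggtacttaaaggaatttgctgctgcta
Capitals mark matches, on either strand, to the E-box CACCTG (reverse complement CAGGTG), which ZEB and SNAIL factors are known to bind, to the E-box CAGCTG, or to TGACNNNGC (reverse complement GCNNNGTCA), the core of the antioxidant response element bound by Nrf2 with small Maf partners. None of these motifs overlapped another. Snai1 held 1 CACCTG, 126 bases before its start, Twist1 held 1 TGACNNNGC, 85 bases before its start, and Prrx1 held none of them, nor did the Vim window or the 4 Zeb2 windows. Of 32851 promoter windows of the same length, 17.2% held CACCTG, 13.0% held CAGCTG and 10.2% held TGACNNNGC. A match is a description of the letters and not a binding site.

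Zeb1, Zeb2 and Snai1 were read in every library at levels far closer between the lines. Zeb1 was at 104 and 97.3 CPM in MT∆Ecad siNrf2 and 96.3 and 83.1 CPM in MT∆Ecad siCtl. It was at 60.5 and 83.7 CPM in Py2T LT siNrf2 and 68.7 and 83.6 CPM in Py2T LT siCtl, and at 52.1 and 70.1 CPM in PyMT-1099 LT siNrf2 and 57.3 and 67.1 CPM in PyMT-1099 LT siCtl. The Py2T LT and PyMT-1099 LT libraries overlapped, and all but 1 MT∆Ecad library lay above both. In siCtl, Zeb1 was 1.44-fold higher in MT∆Ecad than in PyMT-1099 LT (log2 difference 0.52, SE 0.19, limma adjusted p 0.040). That call was lost in 6 of 12 fits that left out a library (adjusted p 0.059 to 0.20 in these 6) and with no filter on low values (adjusted p 0.057). Zeb1 was not called between MT∆Ecad and Py2T LT (0.24, 95% interval −0.19 to 0.66) or between Py2T LT and PyMT-1099 LT (0.29, −0.14 to 0.71).

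Snai1, the snail factor that names its family, was at 49.0 and 53.2 CPM in MT∆Ecad siNrf2 and 36.3 and 46.4 CPM in MT∆Ecad siCtl. It was at 48.8 and 38.0 CPM in Py2T LT siNrf2 and 41.5 and 44.1 CPM in Py2T LT siCtl, and at 55.7 and 49.7 CPM in PyMT-1099 LT siNrf2 and 40.2 and 47.7 CPM in PyMT-1099 LT siCtl. The ranges of the 3 lines overlapped. In siCtl its differences were −0.06 between MT∆Ecad and Py2T LT (95% interval −0.41 to 0.29), −0.09 between MT∆Ecad and PyMT-1099 LT (−0.44 to 0.26) and −0.03 between Py2T LT and PyMT-1099 LT (−0.39 to 0.32), and none was called by limma. Snai1 thus did not separate the lines. Cdh1 had 9 to 22 reads a library in MT∆Ecad and 371 to 2212 in the PyMT lines. The name MT∆Ecad denotes a deletion of Cdh1, so the low Cdh1 reads there cannot be set against the level of Snai1. A link between Snai1 and Cdh1 was not tested.

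Zeb2 was the most variable of the 3 between replicates. It was at 44.1 and 38.6 CPM in MT∆Ecad siNrf2, against 69.8 and 47.3 CPM in MT∆Ecad siCtl. It was at 24.1 and 42.6 CPM in Py2T LT siNrf2, against 33.5 and 49.3 CPM in Py2T LT siCtl, and at 22.9 and 37.4 CPM in PyMT-1099 LT siNrf2, against 46.7 and 59.1 CPM in PyMT-1099 LT siCtl. The siNrf2 libraries lay below the siCtl libraries without overlap in MT∆Ecad and PyMT-1099 LT and overlapped them in Py2T LT, and the lines overlapped each other. Between lines in siCtl, Zeb2 differed by 0.49 (MT∆Ecad against Py2T LT, 95% interval −0.25 to 1.23), by 0.13 (MT∆Ecad against PyMT-1099 LT, −0.61 to 0.87) and by −0.36 (Py2T LT against PyMT-1099 LT, −1.10 to 0.38), none of them called by limma.

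Of the 9 genes tested, 5 were called between MT∆Ecad and Py2T LT in siCtl, 4 higher and 1 lower, where 54.4% of all 12502 genes tested were called. Between MT∆Ecad and PyMT-1099 LT 6 were called, 5 higher and 1 lower, against 57.6% of all genes. Between Py2T LT and PyMT-1099 LT 6 were called, 3 higher and 3 lower, against 55.6%. The shares of these genes called were thus near the background of these comparisons. The median log2 differences were 0.49, 0.50 and −0.03 in the same order of comparisons, beside −0.0009, −0.05 and −0.02 over all genes. The same genes were called by edgeR and DESeq2 on the recovered reads. In the siNrf2 libraries the pair MT∆Ecad and Py2T LT gave 7 called genes, Zeb1 (0.49, limma adjusted p 0.047) and Snai2 besides the 5, where 62.0% of all genes were called. The siNrf2 effect on Zeb1 was not called different between these 2 lines either (limma adjusted p 0.72).

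**Figure D2:**
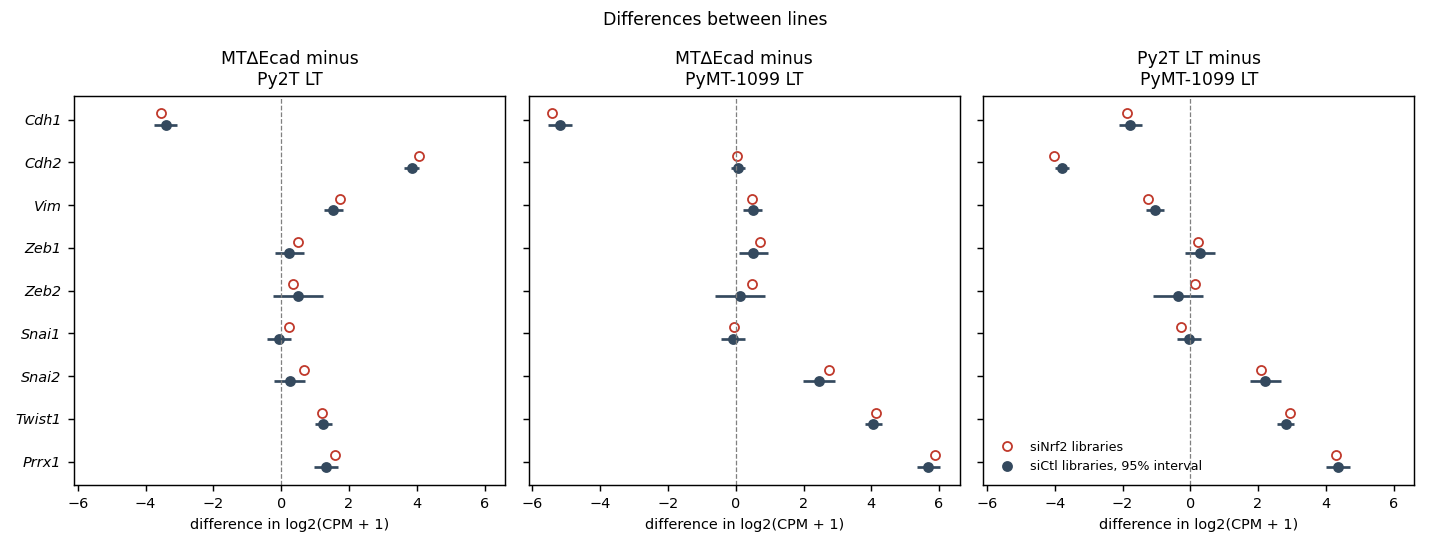
Difference between lines in log2(CPM + 1) (horizontal axis) for the 9 tested genes, as first line minus second line named above each panel; filled points and bars are siCtl libraries with 95% limma intervals, open points the same difference in siNrf2 libraries. Cdh1 lies below 0 in each panel, Cdh2 and Vim turn to the other side in Py2T LT minus PyMT-1099 LT, and Snai1 and Zeb2 have intervals that cross 0 in each.

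Levels can be set side by side only per length of exon. Per kb, in the siCtl libraries, Vim led in each line, at 1056 CPM per kb in MT∆Ecad, 364 in Py2T LT and 748 in PyMT-1099 LT. Snai1 came next in both PyMT lines, at 26.4 CPM per kb in Py2T LT and 27.1 in PyMT-1099 LT. In MT∆Ecad it stood at 25.5 beside 26.7 for Cdh2, and the ranges of these 2 overlapped, as they did in PyMT-1099 LT. Among the ZEB factors Zeb1 stood above Zeb2 in each line, at 8.73 against 2.93 CPM per kb in MT∆Ecad, 7.42 against 2.08 in Py2T LT and 6.06 against 2.65 in PyMT-1099 LT. Twist1 stood above Snai2 in MT∆Ecad (9.59 against 2.23) and in Py2T LT (3.70 against 1.80). The middle of the order was tight in Py2T LT, where Zeb2, Snai2, Prrx1 and Cdh2 lay between 1.74 and 2.08 CPM per kb and did not separate beyond their ranges. Of the 10 genes, 8 stood above Cdh1 in MT∆Ecad (0.0859 CPM per kb), 4 in Py2T LT (3.03) and 3 in PyMT-1099 LT (10.9).

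**Figure D3:**
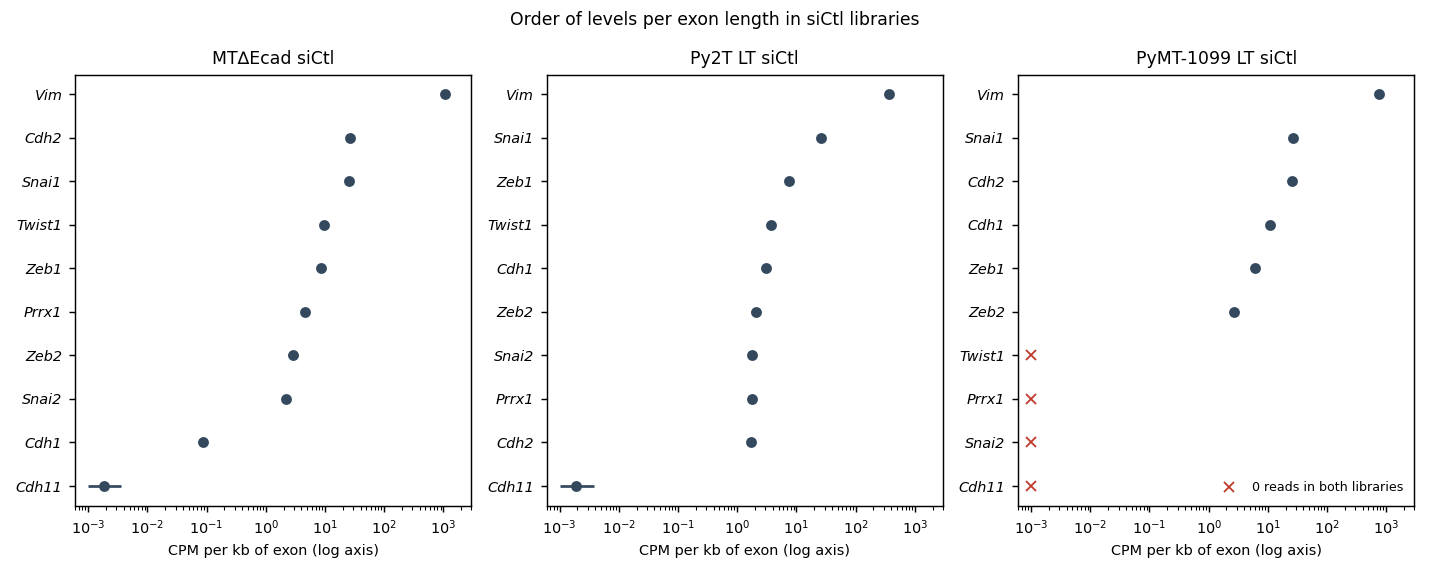
Mean CPM per kb of exon (horizontal log axis) in the siCtl libraries of each line, genes ordered from highest at the top; bars span the 2 libraries, a bar that reaches the left end of the scale marks a library at 0, and crosses mark genes with 0 reads in both libraries. Vim leads in each line, and Cdh1 moves up the order, with 8 genes above it in MT∆Ecad and 3 in PyMT-1099 LT.

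Knockdown of Nrf2 moved none of the 9 tested genes past the threshold in the fit without a replicate block. Zeb2 was lower in each line and came closest in PyMT-1099 LT and for the mean over lines. In MT∆Ecad Snai1 came closest (limma adjusted p 0.22, beside 0.39 for Zeb2). In Py2T LT Cdh1 did (unadjusted limma p 0.18, beside 0.33 for Zeb2). In MT∆Ecad limma called 0 of 9 genes at an adjusted p under 0.05, where 17.3% of all genes were called, in Py2T LT 0 of 9 (0.152% of all genes) and in PyMT-1099 LT 0 of 9 (0.52%, with 3 of these genes at 0 reads throughout). As the mean over lines 0 of 9 were called, where 12.3% of all genes were, and for the difference of the effect between lines 0 of 9 (F test, 2.18%). At an unadjusted limma p under 0.05 there was 1 gene in PyMT-1099 LT (Zeb2), there were 2 for the mean over lines (Cdh1 and Zeb2), and there were 0 in the other comparisons. edgeR called 0 in each of these comparisons, and DESeq2 called 1, Zeb2 for the mean over lines, where it called 9.95% of all genes.

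Replicates of the same number deviated together within each line, so each siNrf2 library can be set against the siCtl library of its number. Zeb2 was lower in siNrf2 in 6 of 6 such pairs, with ratios of 0.633 and 0.816 in MT∆Ecad, 0.718 and 0.864 in Py2T LT and 0.490 and 0.633 in PyMT-1099 LT. Over all genes tested, 12.2% were lower in 6 of 6 pairs. The mean log2 change of Zeb2 was −0.54 (SE 0.19), with limma adjusted p 0.093 without a block and 0.0015 with the replicate number as a block, where 40.0% of all genes were called. By line it was −0.47 in MT∆Ecad (limma adjusted p 0.39, and 0.018 with the block), −0.33 in Py2T LT (1, and 0.23 with the block) and −0.82 in PyMT-1099 LT (0.42, and 0.014 with the block). Over all genes the block called 42.6% in MT∆Ecad, 1.02% in Py2T LT and 9.0% in PyMT-1099 LT. DESeq2 gave an adjusted p of 0.034 for the mean over lines and edgeR 0.11. Over the 12 limma fits that each left out a library, the mean log2 change of Zeb2 ran from −0.67 to −0.41. The difference of the Zeb2 effect between lines was not called (limma F test, adjusted p 0.97, and 0.15 with the block).

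Zeb2 is on chromosome 2 and has the longest exon sequence of the set. Its annotated 3′ UTR of 4944 bases (GENCODE M21) holds 1 copy of the 7-mer GAGAAGT and none of ACCATTT, which were found earlier, in these same data, to be more frequent among genes lower in siNrf2. The 3′ UTR of Cdh1 also holds GAGAAGT. These sites are shown, with the 7-mer in capitals, because these 2 genes had an unadjusted p under 0.05 for the mean over lines, in opposite directions.
Zeb2: aaaagtaagatGAGAAGTaaagaaagcct
Cdh1: gagactgatctGAGAAGTgtgcagattgc
Of 11848 tested genes with an annotated 3′ UTR, 11.9% held GAGAAGT, with a median log2 change (mean over lines) of −0.04 beside −0.003 in those without it, and 13.8% held ACCATTT. Since the 7-mers were picked from these same data, the difference in medians is no separate support. The shares are not matched to the length of the 3′ UTR. Cdh11 and Prrx1 held GAGAAGT as well and Snai2 held ACCATTT. The part of these 7-mers in the Zeb2 values was not tested.

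Cdh1 was higher in siNrf2 in 5 of 6 pairs, with ratios of 0.695 and 1.92 in MT∆Ecad, on 9 to 22 reads a library, 1.17 and 1.19 in Py2T LT, and 1.29 and 1.20 in PyMT-1099 LT. Its mean log2 change was 0.20 (SE 0.09), with limma adjusted p 0.16, and 0.041 with the replicate block. By line its 95% intervals without the block ran from −0.26 to 0.42 in MT∆Ecad, −0.12 to 0.56 in Py2T LT and −0.03 to 0.65 in PyMT-1099 LT. Every PyMT-1099 LT siNrf2 library lay above every siCtl library of that line, which was also so for 2501 of the 12502 genes tested.

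For the mesenchymal genes the values were small. Vim changed by 0.13 in MT∆Ecad (limma adjusted p 0.54, and 0.048 with the block), by −0.06 in Py2T LT and by 0.15 in PyMT-1099 LT. The 95% intervals without the block ran from −0.34 to 0.43 over the 3 lines. Cdh2 was 0.14 higher in MT∆Ecad, 0.07 lower in Py2T LT and 0.17 higher in PyMT-1099 LT on the log2 scale, none of them called in either fit.

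Among the other factors Snai1 was higher in siNrf2 in 5 of 6 pairs, by 0.31 in MT∆Ecad (95% interval −0.04 to 0.66), 0.01 in Py2T LT (−0.34 to 0.36) and 0.26 in PyMT-1099 LT (−0.09 to 0.61) on the log2 scale. Twist1 was higher in 4 of 4 pairs, with ratios of 1.02 to 1.20. Snai2 was higher in 3 of 4 pairs, with ratios of 0.660 to 1.46, and Prrx1 in 2 of 4, with ratios of 0.918 to 1.20. Zeb1 was higher in 4 of 6 pairs, with ratios of 0.880 to 1.17. None of these 5 was called in any line or for the mean, with or without the block.

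Counted by overlap in place of a test, 6 of 9 genes had siNrf2 and siCtl libraries apart in MT∆Ecad, where 65.3% of all genes did. These were Cdh2, Vim, Zeb1, Snai1 and Prrx1 above siCtl and Zeb2 below. In PyMT-1099 LT there were 4 (Cdh1, Cdh2 and Snai1 above, Zeb2 below), with 37.1% of all genes, and in Py2T LT there was Twist1 alone, above, with 23.5%.

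**Figure D4:**
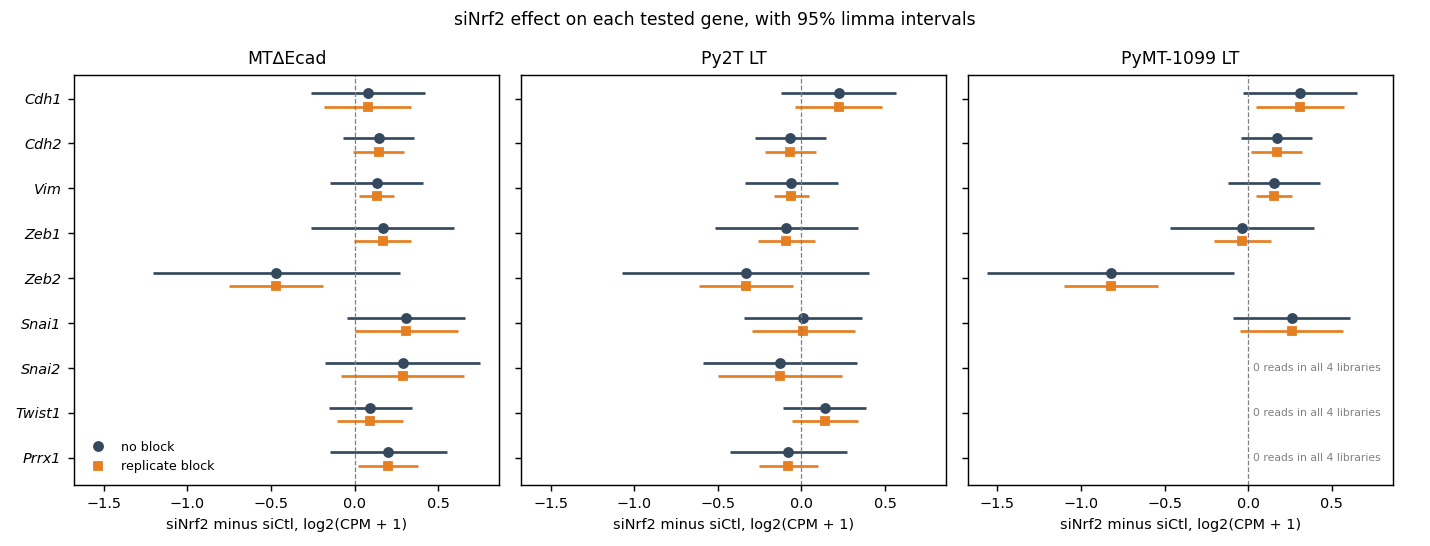
Log2 change in siNrf2 against siCtl, on log2(CPM + 1), for the 9 tested genes in each line, with 95% limma intervals without a block (circles) and with the replicate number as a block (squares); genes with 0 reads in all 4 libraries of a line have no point. Zeb2 has the lowest value in each line, and the other points lie between −0.13 and 0.31.

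**Figure D5:**
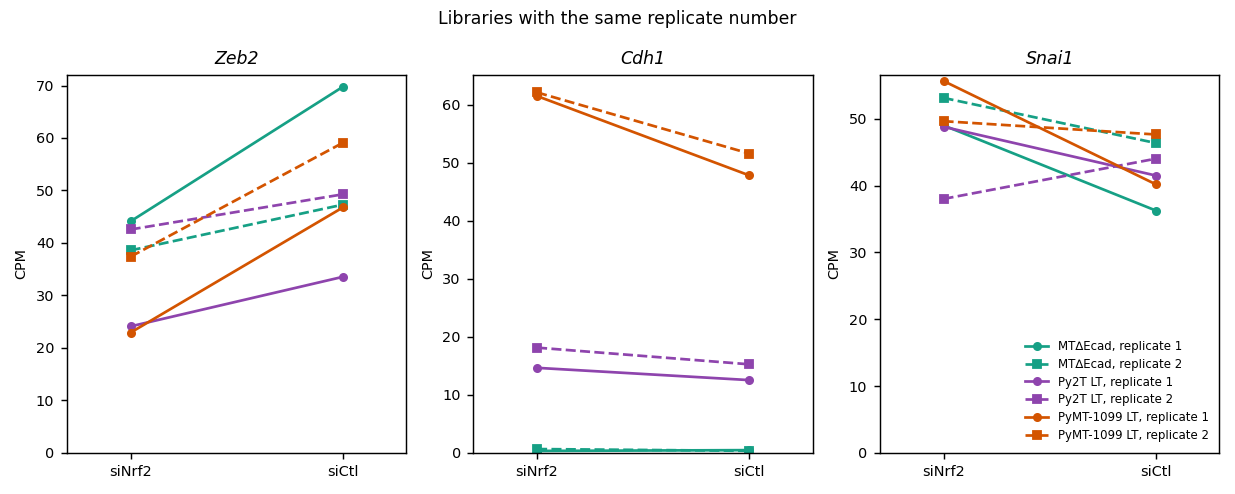
CPM (vertical axis, from 0) of Zeb2, Cdh1 and Snai1 in siNrf2 (left) and siCtl (right); lines join libraries of the same replicate number (solid for 1, dashed for 2), and colours mark the cell line. Zeb2 is lower in siNrf2 in 6 of 6 pairs, Cdh1 is higher in 5 of 6, and Snai1 is higher in 5 of 6.

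Around these genes, other cadherins were called between lines in most cases and after siNrf2 in 1. Of 19 other cadherins 8 passed the filter, of which 3 were higher and 3 lower in MT∆Ecad than in Py2T LT (54.4% of all genes called in either direction), 2 higher and 5 lower in MT∆Ecad than in PyMT-1099 LT (57.6%), and 3 higher and 5 lower in Py2T LT than in PyMT-1099 LT (55.6%). Cdh6, known from kidney development, averaged 0 CPM in MT∆Ecad siCtl, 124 CPM in Py2T LT siCtl and 475 CPM in PyMT-1099 LT siCtl. Cdh13, which is anchored to the membrane by a lipid, ran the other way, at 62.2 CPM in MT∆Ecad siCtl, 6.27 CPM in Py2T LT siCtl and 0.100 CPM in PyMT-1099 LT siCtl. Cdh10 averaged 41.6 CPM in Py2T LT siCtl alone, with 0 in MT∆Ecad siCtl and 0.0751 CPM in PyMT-1099 LT siCtl. Cdh5, the cadherin of endothelial cells, and Cdh17, of intestinal cells, were highest in PyMT-1099 LT siCtl, at 89.3 and 106 CPM.

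Cdh16, a cadherin of kidney epithelium, was the only one of these that limma called after siNrf2 without the block. With the block 3 rose in PyMT-1099 LT, where 9.0% of all genes were called. Cdh16 had 0 reads in MT∆Ecad and Py2T LT. It was at 157 and 164 CPM in PyMT-1099 LT siNrf2, against 87.6 and 90.6 CPM in PyMT-1099 LT siCtl (log2 change 0.84, SE 0.08, limma adjusted p 0.0060, DESeq2 6.3e-06). edgeR did not call it (adjusted p 0.16).

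The proteins that work with cadherins, catenins, actin linkers and nectins, showed line differences in both directions: of 16 tested, 7 were higher and 4 lower in MT∆Ecad than in Py2T LT (54.4% of all genes called), 6 higher and 5 lower in MT∆Ecad than in PyMT-1099 LT (57.6%), and 6 higher and 5 lower in Py2T LT than in PyMT-1099 LT (55.6%). Vcl, which links catenins to actin under tension, averaged 2220 CPM in MT∆Ecad siCtl, 376 CPM in Py2T LT siCtl and 518 CPM in PyMT-1099 LT siCtl, and Lima1, an actin binder, averaged 409, 110 and 45.4 CPM. Nectin1 averaged 77.2, 164 and 18.9 CPM in that order and Nectin2 27.6, 4.24 and 40.1 CPM. In MT∆Ecad siNrf2, Lima1 rose (0.40, limma adjusted p 0.0093) and Vcl rose (0.31, 0.033), while Pkp4, a relative of p120 catenin, fell (−0.32, 0.013). These 3 of 16 are a share near the 17.3% of all genes called there. With the block 8 rose and 3 fell, where 42.6% of all genes were called. Those 3 calls held in 9, 6 and 8 of 12 fits that left out a library.

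Other EMT transcription factors and cofactors were read as a list of 30, of which 25 passed the filter. In MT∆Ecad 2 rose and 7 fell after siNrf2, where 8.89% of all genes rose and 8.42% fell. The median change of the 25 was 0, as over all genes. With the block 6 rose and 9 fell, where 42.6% of all genes were called. The falls were led by Hmga2, a chromatin protein of embryonic tissue, at 84.4 and 37.4 CPM in MT∆Ecad siNrf2 against 179 and 113 CPM in MT∆Ecad siCtl (log2 change −1.33, limma adjusted p 0.022). Fosl1, an AP-1 subunit, was at 63.2 and 29.6 CPM in MT∆Ecad siNrf2 against 138 and 82.0 CPM in MT∆Ecad siCtl (−1.28, adjusted p 0.031), and Etv4, an ETS factor, at 36.7 and 36.3 CPM against 61.2 and 67.1 CPM (−0.79, adjusted p 0.0034). The calls of Hmga2 and Fosl1 held in 10 and 8 of 12 fits that left out a library. In Py2T LT and PyMT-1099 LT limma, edgeR and DESeq2 called 0 of the 25 without the block, with 4 and 2 at an unadjusted limma p under 0.05. With the block limma called 0 in Py2T LT, and 1 rose and 1 fell in PyMT-1099 LT (9.0% of all genes called). Hmga2 averaged 1269 CPM in Py2T LT siNrf2 against 1066 in siCtl, and 291.8 against 243.5 CPM in PyMT-1099 LT. For the mean over lines 4 of the 25 fell and 0 rose, where 6.26% of all genes fell. The 4 included Tead2 (−0.45, limma adjusted p 0.0062), Etv4 (−0.34, 0.0165) and Etv5 (−0.32, 0.022). With the block 8 fell and 1 rose, where 40.0% were called.

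Between lines, some of these factors repeated the gap of PyMT-1099 LT and others did not. Twist2, the close relative of Twist1, averaged 21.3 CPM in MT∆Ecad siCtl and 6.91 CPM in Py2T LT siCtl and had 0 reads in PyMT-1099 LT. Foxc1, a forkhead factor of mesenchyme, averaged 39.6, 15.5 and 0.877 CPM in these groups. Its relative Foxc2 averaged 37.7 CPM in Py2T LT siCtl and had 0 reads in siCtl of the other lines, as did the T-box factor Tbx3, at 10.2 CPM in Py2T LT siCtl. The differences of Twist2 and Foxc1 between MT∆Ecad and PyMT-1099 LT, and of Foxc2 and Tbx3 between Py2T LT and each other line, were called (limma adjusted p 3.6e-08 or less).

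Epithelial genes that ZEB and SNAIL factors are known to repress were mostly lower in MT∆Ecad. Of 25 tested, 20 were lower and 3 higher in MT∆Ecad than in Py2T LT, where 28.6% of all genes were lower, with a median of −1.26. Against PyMT-1099 LT 17 were lower and 5 higher, where 30.6% of all genes were lower, with a median of −1.25. Between Py2T LT and PyMT-1099 LT 9 were higher and 12 lower, where 28.1% of all genes were higher and 27.5% lower, with a median of −0.17. The genes with more RNA thus differed between the PyMT lines. The claudin Cldn4 averaged 0 CPM in MT∆Ecad siCtl, 157 CPM in Py2T LT siCtl and 6.80 CPM in PyMT-1099 LT siCtl, and the adhesion molecule Epcam 0.0648, 17.7 and 0 CPM. The keratin Krt19 averaged 0.0878, 0 and 122 CPM in the same order, and the desmosomal plaque gene Dsp 7.28, 65.6 and 305 CPM.

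The epithelial regulators were split as well. Of 11 tested, 3 were higher and 5 lower in MT∆Ecad than in Py2T LT (54.4% of all genes called in either direction). In MT∆Ecad 2 were higher and 6 lower than in PyMT-1099 LT (57.6%). In Py2T LT 5 were higher and 5 lower than in PyMT-1099 LT (55.6%). Esrp1, which directs epithelial splicing, averaged 0 CPM in MT∆Ecad siCtl, 11.1 CPM in Py2T LT siCtl and 0.0143 CPM in PyMT-1099 LT siCtl, and Grhl2, a grainyhead factor of epithelia, 0, 10.1 and 0.841 CPM. Esrp2 averaged 2.26, 4.06 and 25.9 CPM and Elf3, an epithelial ETS factor, 0.0369, 1.82 and 16.7 CPM. The luminal factor Gata3 ran against them, at 89.5, 18.9 and 0.855 CPM. Of 11 such regulators tested, 1 rose and 1 fell in MT∆Ecad after siNrf2, where 8.89% of all genes rose and 8.42% fell. Trp63 rose (log2 change 1.77, limma adjusted p 0.00038, edgeR 0.0117, DESeq2 6.8e-08) and Klf5 fell (−0.70, limma adjusted p 0.027). With the block 2 rose and 1 fell, where 42.6% of all genes were called. In Py2T LT limma called 0 of the 11 with or without the block, and in PyMT-1099 LT 1 rose with the block only. The microRNA genes of the Mir200 family and Mir205, which repress ZEB factors, had rows with 0 reads in all 12 libraries; libraries of rRNA-depleted total RNA carry few mature microRNAs, so their levels cannot be read from these rows.

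Few of the epithelial genes that ZEB factors repress were called after siNrf2. For the mean over lines 3 of 25 rose and 0 fell, where 5.99% of all genes rose and 6.26% fell. The 3 were Spint2, a protease inhibitor (0.43, limma adjusted p 0.026), Patj, a polarity scaffold (0.34, 0.028) and Krt18 (0.32, 0.032). The list median was 0.11 beside −0.009 over all genes. With the block 6 rose and 4 fell, where 40.0% of all genes were called. The 3 calls held in 4 or 5 of 12 fits that left out a library. In MT∆Ecad 1 of the 25 rose and 1 fell, where 8.89% of all genes rose and 8.42% fell. Spint2 rose (0.75, limma adjusted p 0.018) and Cgn, a tight junction scaffold, fell (−0.59, 0.023).

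Mesenchymal adhesion, filament and matrix genes rose in part in MT∆Ecad after siNrf2. Of the 9 tested genes described above, 0 were called there without the block and 2 with it (Vim higher, Zeb2 lower). Of the 28 mesenchymal genes tested, 18 rose and 3 fell with the block, where 42.6% of all genes were called. Without the block 12 rose and 0 fell, where 8.89% of all genes rose, with a median of 0.39. They included the matricellular gene Postn (2.00, limma adjusted p 0.0076), the gelatinase Mmp2 (1.74, 0.00056) and Col1a1 (1.49, 0.0050). In Py2T LT and PyMT-1099 LT limma called 0 of the 28, with 4 and 3 at an unadjusted p under 0.05, edgeR called 0 in both, and DESeq2 called 0 and 1. With the block 1 rose and 1 fell in Py2T LT (1.02% of all genes called), and 2 rose and 2 fell in PyMT-1099 LT (9.0%). Beside this, the fibroblast markers that were tested, Pdgfra, Pdgfrb and Col1a1, rose in MT∆Ecad (3 of 3, where 8.89% of all genes rose). Col1a1 was already counted among the mesenchymal genes above. The summed level of the 8 fibroblast markers was 1120 to 1280 CPM in MT∆Ecad siNrf2 and 739 to 879 CPM in MT∆Ecad siCtl. Lum and Fap had 0 reads in MT∆Ecad siNrf2, and Dcn, Lum and Thy1 in MT∆Ecad siCtl. Of the 2 leukocyte markers tested, limma called 1 higher in MT∆Ecad, where 8.89% of all genes were higher, and 2 for the mean over lines, where 5.99% were. For the mean over lines edgeR and DESeq2 each called 1. Cd68 averaged 5.90 CPM in MT∆Ecad siNrf2 and 3.79 CPM in MT∆Ecad siCtl, and Csf1r 2.02 and 1.09 CPM, while Cd3e and Adgre1 had 0 reads in both groups; the summed level of the 7 leukocyte markers was 7.47 to 8.37 CPM in MT∆Ecad siNrf2 and 4.87 to 4.96 CPM in MT∆Ecad siCtl. In Py2T LT siNrf2 and siCtl, Csf1r averaged 28.1 and 16.5 CPM and Cd68 1.73 and 1.82 CPM. In PyMT-1099 LT siNrf2 and siCtl, Csf1r averaged 42.5 and 26.6 CPM and Cd68 5.29 and 4.13 CPM. Of 7 mammary epithelial markers tested, 1 rose and 1 fell in MT∆Ecad, where 8.89% of all genes rose and 8.42% fell. Krt14, a basal keratin, averaged 48.8 CPM in MT∆Ecad siNrf2 and 132 CPM in MT∆Ecad siCtl. It averaged 20.1 and 32.2 CPM in Py2T LT siNrf2 and siCtl, and 8.90 and 13.7 CPM in PyMT-1099 LT siNrf2 and siCtl. Fewer cells of a kind and less RNA per cell cannot be told apart in these bulk libraries, and the part of these values in the result was not tested.

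Profiles over all 12 libraries were compared by the root mean square distance of log2(CPM + 1) after centring each gene, among genes averaging 2 CPM or more, as a description. Cdh1 lay nearest to Adam8 (0.15), Dsp (0.20) and Igsf11 (0.23), Cdh2 to Nphp4 (0.12), Trpm6 (0.18) and Zbtb10 (0.20), and Vim to Rassf7, Tmem38a (0.10 each) and Il17rc (0.12). Twist1 lay nearest to Tbx15 (0.19), Wnt10a (0.20) and Slc4a3 (0.21), and Prrx1 to Ptgr1 (0.13), Sgcb (0.18) and Htra1 (0.24). Zeb2 lay nearest to Slc39a10 (0.15), Nab1 (0.17) and Hmmr (0.18), Zeb1 to Gdi2, Ppp1r12a and Relch (0.10 each), and Snai1 to Sharpin (0.07), Ccdc97 (0.08) and Mark4 (0.08). Within the set the shortest distance was 0.37, between Zeb1 and Zeb2, and the longest 4.54, between Cdh1 and Prrx1. Zeb1 and Zeb2 varied little, with a root mean square of 0.30 and 0.44 about their own means, and Zeb2 was at place 2855 among the neighbours of Zeb1. Their short distance therefore does not show that their profiles match.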

How the data were processed

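RNA-seq was run on 12 libraries; per the labels' protocols, 200 ng of total RNA was rRNA-depleted with a stranded kit and sequenced as single reads of 81 bases. Per the submitters' processing notes, STAR and mm10 were used; the counting tool is not given in the sources used here. The authors deposited CPM per Entrez gene, and the values were whole multiples of 1 read in 100% of entries (tolerance 0.01 read), so reads were recovered. Of 24454 identifiers, 24374 matched RefSeq names, 7 GENCODE names and 73 neither (0.730% to 1.52% of reads).

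The main test was limma 3.58.1 with a trend on log2(CPM + 1), for 12502 genes at 1 CPM or more in at least 2 libraries, with 6 group means over 12 libraries (6 residual degrees of freedom), two-sided, Benjamini-Hochberg adjusted over all genes, threshold 0.05. Intervals are 95% and unadjusted. Same-numbered libraries of a line deviated together (r 0.625 to 0.846 over genes), which the labels do not explain, so the replicate number was taken as a block within lines. Across lines r ran from −0.413 to 0.792, and a shared block changed no line call of the 9 tested genes, though it called more of all genes. Alternatives were edgeR 4.0.16 and DESeq2 1.42.0 on recovered reads, TMM scaling (factors 0.957 to 1.03), pseudocounts of 0.1 and 5, other filters, subsets, and each library left out. The limma, edgeR and DESeq2 steps were tested on simulated data. Floors of 3 reads cover counting error only. Levels per kb use the union of GENCODE M21 exons.

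Named list genes are up to 3 called per list and comparison with the largest change, at a mean of 2 CPM or more; nearest profiles are the 3 closest tested genes, and those of Snai2 are not reported here. The genes and lists were chosen with earlier results of these data known. Promoter and 3′ UTR sequences are from RefSeq GRCm38.p6 and GENCODE M21.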

Additional observations from a re-analysis of the deposited data

How the results depend on the processing

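Of 1509 values of the 9 tested genes under all alternatives, 1492 kept their side of the threshold, 8 lost a call and 9 gained a call. Of the values with a call, 0 reversed direction. Direction was not compared for values without a call, and some of these changed sign. The siNrf2 effect on Zeb2 in Py2T LT, for example, ran from −0.73 to 0.06 over the fits that left out a library. With the replicate block the siNrf2 calls numbered 1 in PyMT-1099 LT (Zeb2), 2 in MT∆Ecad (Zeb2 lower, Vim higher) and 2 for the mean over lines (Zeb2 lower, Cdh1 higher), against 0 without it, and DESeq2 gave 1 for the mean over lines (Zeb2); the block changed no other call of these genes. Over all genes the block raised the calls to 5324 in MT∆Ecad, against 2164 without it, to 127 in Py2T LT, against 19, and to 1125 in PyMT-1099 LT, against 65. With each library left out, the siNrf2 calls ranged from 0 to 0 in each line and for the difference between lines and from 0 to 1 for the mean over lines. The line differences gave 5 to 5 calls for MT∆Ecad against Py2T LT, 4 to 6 for MT∆Ecad against PyMT-1099 LT, where Zeb1 and Vim dropped out, and 6 to 6 for Py2T LT against PyMT-1099 LT. A filter at 5 CPM left Snai2 untested. Fits on the 4 libraries of a line left 3 genes of PyMT-1099 LT and 1 of MT∆Ecad untested. The cause of the lost and gained calls was not tested. With 2 libraries a group, log2 changes such as those of Zeb2 carried wide intervals, and Cdh1 in MT∆Ecad and Cdh11 were limited by their reads.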
